A study of Arabidopsis thaliana with 12 samples.

Results

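RNA levels of 10 Arabidopsis thaliana genes, whose enzymes make raffinose-family sugars or make and break down proline, were followed through an experiment with abscisic acid (ABA), a hormone that plants make when water is short. They were taken by gene identifier from the count table, which held all 10 of them among 23911 genes, and all 10 passed the filter on low counts that left 20924 genes for testing. They are the galactinol synthase genes GOLS1 to GOLS4, the raffinose synthase genes RS4 and RS5, the proline synthesis genes P5CS1 and P5CS2, and the proline dehydrogenase genes ProDH1 and ProDH2. The samples were seedlings of hda9-1, a mutant in the histone deacetylase gene HDA9, and of wild-type Col-0. In each genotype some seedlings were sprayed with ABA (50 µM, 4 h) and others were not, which gave 4 groups of 3 samples: hda9-1 with ABA, wild type with ABA, hda9-1 without ABA and wild type without ABA. The seedlings, 2 to 3 weeks old, had been kept on MS plates containing sucrose (1%), with days of 16 h at 20 °C, and RNA was selected by its poly(A) tail. The labels name seedlings as the source and mention 8 buds without saying what these are. Several tissues may thus be in a sample, so a change in RNA per cell and a change in the number of cells of a type cannot be told apart.

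Groups were taken from the sample titles, since the treatment field of the labels gives ABA for every hda9-1 sample and none for every wild-type sample. A group sprayed without the hormone is not among these samples and the data columns are named by 0 h and 4 h, so the effects of ABA, of spraying and of the elapsed time cannot be told apart. The titles number the 3 samples of a group as biological replicates without saying what was grown separately, and the p-values rest on the spread among replicates. In the main fit the 4 groups share 1 estimate of that spread for each gene, also where 1 group is more widely spread than the others. Totals ran from 42703802 to 52820930 counts per sample. HDA9 averaged 5.16 ± 0.344 CPM (counts per 1000000 counts of the library, scaled by TMM factors) in hda9-1 with ABA and 16.6 ± 0.252 CPM in wild type with ABA, and 5.34 ± 0.583 CPM in hda9-1 without ABA and 16.2 ± 0.721 CPM in wild type without ABA (SD, n = 3 each), which goes with the labels. Leaf markers were abundant in all samples, at a summed 19900 to 26200 CPM over 3 genes, the 4 seed markers summed to at most 3.35 CPM, with 3 of the 4 at 0 in wild type with ABA, and the 3 flower markers summed to at most 0.738 CPM. The 3 root markers summed to 26.5 to 38.6 CPM in hda9-1 with ABA, 38.1 to 49.7 CPM in wild type with ABA, 36.4 to 48.7 CPM in hda9-1 without ABA and 64.3 to 68.9 CPM in wild type without ABA. Their range was thus lowest in hda9-1 with ABA and highest in untreated wild type. Only PIN2 among them changed with ABA at an adjusted p below 0.05 by edgeR, by -0.92 log2 in hda9-1 and -1.14 in wild type. The values in hda9-1 and wild type were 0.25 and -0.10 for COBL9, and -0.03 and -0.19 for CASP1. Root markers also differed between the genotypes. Without ABA hda9-1 over wild type was -0.49 log2 for PIN2 (adjusted p = 0.013 by edgeR), -1.30 for COBL9 (adjusted p = 0.083) and -0.65 for CASP1 (adjusted p = 0.13). With ABA the values were -0.28, -0.95 and -0.48, and none was called. The part of the root markers in the results was not tested. The spread among replicates was widest in hda9-1 with ABA, a median SD of 0.210 log2 against 0.130 to 0.155 log2 in the other groups, and replicate 2 of that group stood most apart. Leaving it out ended no call of an ABA response at the 10 genes in hda9-1, but when length and GC trends were removed as well, the ProDH1 call was lost. In the hda9-1 ABA response the median log2 fold change was 0.28 over genes of up to 1270 nt of exon. It was -0.15 over genes of 2370 nt or more, and -0.04 in both classes in wild type. Between the genotypes these medians were 0.20 and -0.04 with ABA and -0.14 and 0.05 without. The source of this trend was not tested.

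Galactinol synthases join UDP-galactose to myo-inositol, and the galactinol so made is the galactose donor for raffinose synthases. Proline is made from glutamate by P5CS, the rate-limiting enzyme, and then by a reductase, and it is broken down again in mitochondria by proline dehydrogenase. Raffinose, galactinol and proline accumulate in plants under drought, salt or cold, where they act as compatible solutes and are thought to protect membranes and proteins.

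The 300 bases before the annotated start are shown for the 4 galactinol synthase genes, which responded to ABA to very different extents, and for ProDH1, whose promoter is known from work in Arabidopsis for a short bZIP site. Sequences are from RefSeq's TAIR10.1 genome, 5′ to 3′ on the strand of the gene. None of these 5 windows runs into a neighbouring gene. Capitals mark matches on either strand to the core of the ABA-responsive element (ACGTG), the core of the dehydration-responsive element (CCGAC), the ACTCAT site of ProDH1 and the core of the heat shock element (GAANNTTC).
GOLS1, chr2:19370479-19370778, minus strand: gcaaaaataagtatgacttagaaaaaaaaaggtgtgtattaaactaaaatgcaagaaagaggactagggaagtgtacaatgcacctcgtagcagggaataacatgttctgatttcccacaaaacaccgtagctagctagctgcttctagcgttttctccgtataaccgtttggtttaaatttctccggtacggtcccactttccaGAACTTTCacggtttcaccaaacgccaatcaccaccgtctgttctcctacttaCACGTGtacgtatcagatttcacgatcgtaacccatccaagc
GOLS2, chr1:21207237-21207536, plus strand: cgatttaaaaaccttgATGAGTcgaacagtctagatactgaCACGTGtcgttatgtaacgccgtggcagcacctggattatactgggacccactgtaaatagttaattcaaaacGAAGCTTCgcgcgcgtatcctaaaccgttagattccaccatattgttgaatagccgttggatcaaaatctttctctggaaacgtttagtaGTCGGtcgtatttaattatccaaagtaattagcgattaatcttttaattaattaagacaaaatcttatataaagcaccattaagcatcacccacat
GOLS3, chr1:3019339-3019638, plus strand: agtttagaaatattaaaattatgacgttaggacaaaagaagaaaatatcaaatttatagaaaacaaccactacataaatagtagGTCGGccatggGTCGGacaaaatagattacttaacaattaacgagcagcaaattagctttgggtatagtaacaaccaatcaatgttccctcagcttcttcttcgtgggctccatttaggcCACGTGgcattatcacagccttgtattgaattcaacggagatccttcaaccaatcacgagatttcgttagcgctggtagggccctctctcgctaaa
GOLS4, chr1:22280594-22280893, minus strand: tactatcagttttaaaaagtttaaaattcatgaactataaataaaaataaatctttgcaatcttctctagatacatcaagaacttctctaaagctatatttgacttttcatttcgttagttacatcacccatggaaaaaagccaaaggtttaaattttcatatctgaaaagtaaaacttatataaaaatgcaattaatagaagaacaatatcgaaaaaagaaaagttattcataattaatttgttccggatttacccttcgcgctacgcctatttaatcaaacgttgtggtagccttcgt
ProDH1, chr3:12451557-12451856, minus strand: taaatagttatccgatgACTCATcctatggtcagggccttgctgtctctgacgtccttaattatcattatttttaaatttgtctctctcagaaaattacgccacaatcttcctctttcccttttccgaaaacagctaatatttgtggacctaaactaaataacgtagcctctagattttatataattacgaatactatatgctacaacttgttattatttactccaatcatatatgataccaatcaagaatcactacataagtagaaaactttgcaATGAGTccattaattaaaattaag

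The palindrome CACGTG, which holds the ABA-responsive core on both strands, began 42 bases before the start of GOLS1, 259 before GOLS2 and 96 before GOLS3. RS4 held the same core at 88 and 68 bases before its start. Of all 27437 promoter windows of this length, 25.6% held that core and 9.94% held 2 or more matches to it, counted over both strands. The share of windows with the full palindrome was not counted. GOLS4 and P5CS1 had none of the 4 motifs in their windows. The ACTCAT site was found in the ProDH1 window at 283 and 24 bases before the start, once on each strand. It was also found once each before GOLS2 and P5CS2, against 14.8% of all windows, and 1.41% of all windows held 2 or more of them. The dehydration-responsive core, held by 13.9% of windows, occurred before GOLS2, GOLS3 (2 copies), RS5 and P5CS2, and the heat shock core, held by 11.5%, before GOLS1, GOLS2 and ProDH2. These are matches of letters only.

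After ABA the same 6 members were called higher in each genotype: GOLS1, GOLS2, GOLS4, RS5, P5CS1 and ProDH2. In hda9-1 ProDH1 was called lower and GOLS3, RS4 and P5CS2 were not called. In wild type RS4 was called lower and GOLS3, P5CS2 and ProDH1 were not called. A call is a Benjamini-Hochberg adjusted p below 0.05 in edgeR's quasi-likelihood test over all 20924 genes, which called 41.9% of all genes in hda9-1 (23.3% higher, 18.6% lower) and 30.9% in wild type (17.0% higher, 14.0% lower). The median log2 fold change of the 10 members was 1.12 in hda9-1 and 1.16 in wild type, beside 0.01 and -0.02 over all genes. Samples with and without ABA did not overlap at 7 members in hda9-1, where this held for 46.7% of all genes (25.3% higher, 21.3% lower), and at 8 in wild type, where it held for 51.6% (25.2% higher, 26.4% lower). At an adjusted p below 0.01 the counts were 7 in hda9-1 and 6 in wild type, where 28.9% and 19.7% of all genes passed.

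**Figure D1:**
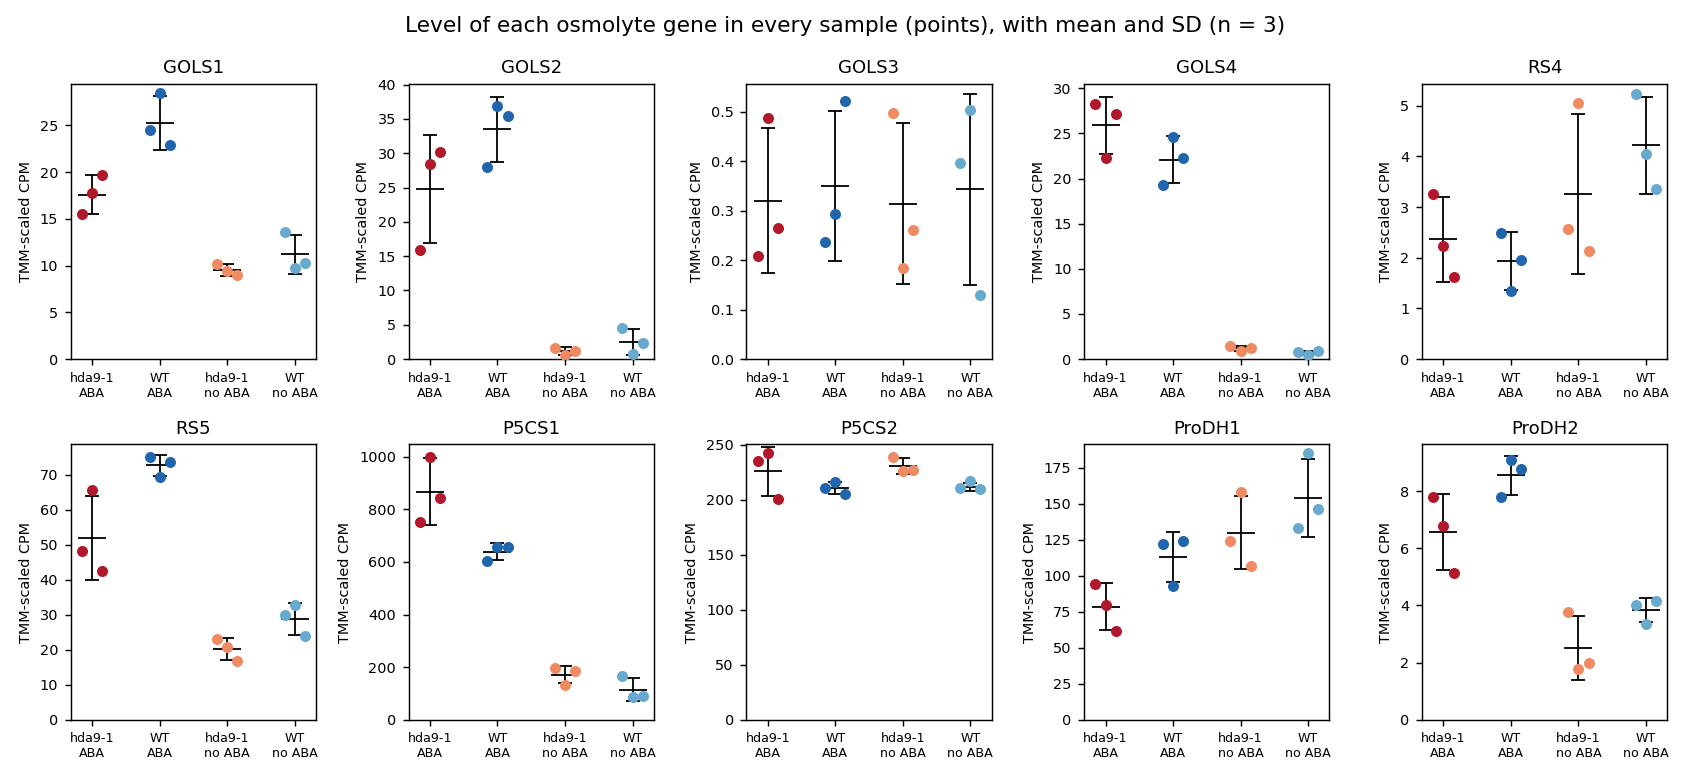
Level of each of the 10 genes in CPM (vertical axis from 0, own scale per gene) in the 4 groups, with 1 point per sample and bars for the mean and SD of 3 samples. GOLS2, GOLS4 and P5CS1 lay far apart with and without ABA, GOLS3 stayed at or below 0.522 CPM, and P5CS2 lay between 201 and 243 CPM in all 12 samples.

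Galactinol synthase genes differed most among themselves. GOLS4 (AT1G60470, chromosome 1, 22278975 to 22280593, minus strand) had 28.2, 22.3 and 27.2 CPM in hda9-1 with ABA, against 1.45, 0.896 and 1.18 CPM in hda9-1 without ABA. Wild-type samples had 19.3, 24.6 and 22.3 CPM with ABA, against 0.757, 0.483 and 0.865 CPM without ABA. All ABA samples were far above all untreated samples, and the log2 fold change was 4.45 ± 0.20 in hda9-1 (SE, adjusted p = 6.5e-11 by edgeR) and 4.97 ± 0.21 in wild type (adjusted p = 4.7e-11). By size of increase GOLS4 ranked 182 in hda9-1 and 104 in wild type among the 20924 genes.

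GOLS2 (AT1G56600, chromosome 1, 21207537 to 21209635, plus strand), known as a drought- and salt-induced galactinol synthase gene, had 15.9, 28.5 and 30.2 CPM in hda9-1 with ABA, against 1.65, 0.552 and 1.20 CPM without ABA. The wild type had 28.0, 36.9 and 35.4 CPM with ABA, against 4.54, 0.777 and 2.27 CPM without ABA. The untreated wild-type samples were widely spread and still lay below every ABA sample. GOLS2 rose by 4.43 ± 0.59 log2 in hda9-1 (SE, adjusted p = 2.7e-04 by edgeR) and by 3.71 ± 0.54 in wild type (adjusted p = 7.0e-04). Without replicate 1 of untreated wild type, the highest of the 3, the wild-type value was 4.46 (adjusted p = 1.8e-04).

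GOLS1 (AT2G47180, chromosome 2, 19368798 to 19370478, minus strand), a galactinol synthase gene known also for its heat response, had the highest level per exon length of the family before treatment and a smaller response. It had 15.5, 17.8 and 19.7 CPM in hda9-1 with ABA, against 10.2, 9.38 and 9.03 CPM without ABA. In wild type it had 24.5, 28.5 and 22.9 CPM with ABA, against 13.6, 9.79 and 10.3 CPM without ABA. The groups did not overlap in either genotype, and GOLS1 rose by 0.89 ± 0.14 log2 in hda9-1 (SE, adjusted p = 1.1e-04 by edgeR) and by 1.17 ± 0.14 in wild type (adjusted p = 8.5e-06).

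GOLS3 (AT1G09350, chromosome 1, 3019639 to 3021443, plus strand), known as the cold-induced member, was barely expressed. It had 9 to 24 counts per sample in hda9-1 with ABA and 8 to 24 in hda9-1 without ABA, and 10 to 25 in wild type with ABA and 6 to 24 in wild type without ABA. The groups overlapped fully, and the log2 fold change was 0.03 in each genotype. Its 95% interval was -1.33 to 1.39 in hda9-1 and -1.31 to 1.37 in wild type, so changes within those bounds remain possible at these counts. GOLS2 and GOLS3 have the most similar coding sequences of the 4 genes, with 83.3% identity over the aligned bases and a longest identical run of 26 bases, against reads of 75 bases.

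**Figure D2:**
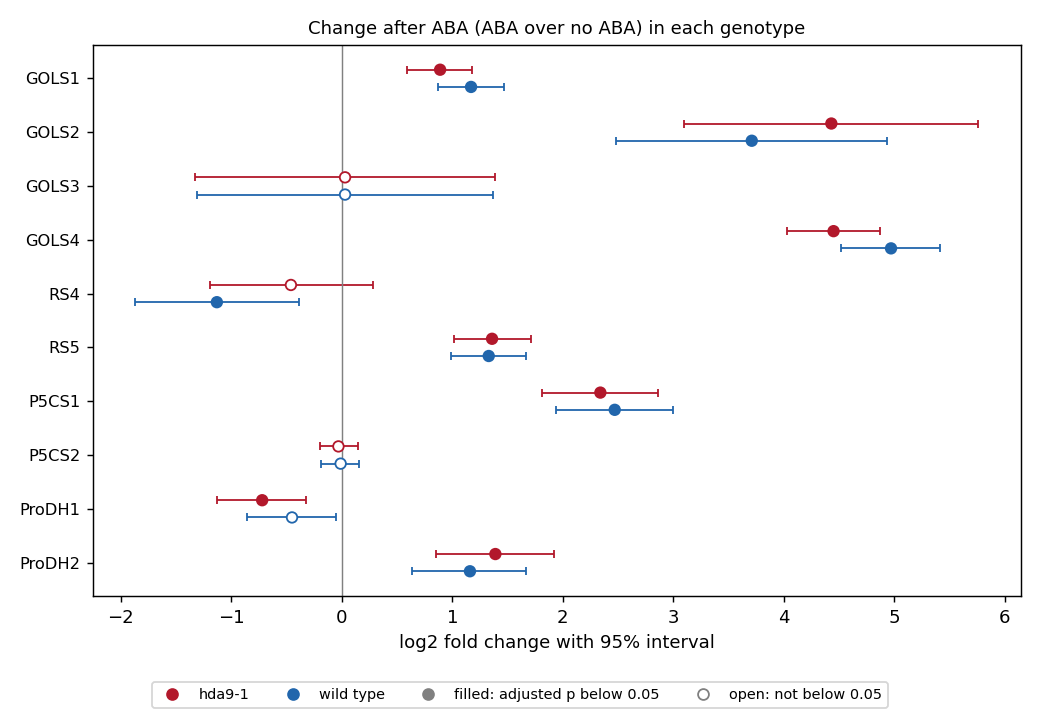
Log2 fold change with ABA over without ABA for each gene, hda9-1 above wild type, with 95% intervals. Filled points have an adjusted p below 0.05, which holds in each genotype for GOLS1, GOLS2, GOLS4, RS5, P5CS1 and ProDH2.

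In wild type the raffinose synthase genes were called in different directions. RS5 (AT5G40390, chromosome 5, 16161449 to 16165453, plus strand), which encodes the stress-related raffinose synthase, had 48.1, 65.5 and 42.5 CPM in hda9-1 with ABA, against 23.1, 20.8 and 16.9 CPM without ABA. Wild-type samples had 75.1, 69.2 and 73.5 CPM with ABA, against 30.0, 32.8 and 23.9 CPM without ABA. Every ABA sample was above every untreated one, and RS5 rose by 1.36 ± 0.16 log2 in hda9-1 (SE, adjusted p = 1.4e-05 by edgeR) and by 1.33 ± 0.16 in wild type (adjusted p = 2.0e-05). The hda9-1 value was 1.60 with length and GC trends removed. RS4 (AT4G01970, chromosome 4, 853922 to 857401, minus strand), whose product makes raffinose and stachyose and is known from seeds, had 3.25, 2.23 and 1.61 CPM in hda9-1 with ABA, against 2.56, 5.06 and 2.13 CPM without ABA. The wild type had 2.49, 1.34 and 1.96 CPM with ABA, against 5.24, 4.05 and 3.35 CPM without ABA. RS4 fell by 1.13 ± 0.35 log2 in wild type (SE, adjusted p = 0.022 by edgeR), where groups did not overlap, while the value in hda9-1 was -0.46 ± 0.35 (adjusted p = 0.31) with overlapping groups. The wild-type call was lost without replicate 1 of untreated wild type (adjusted p = 0.089), or without replicate 2 (adjusted p = 0.093) or replicate 3 (adjusted p = 0.065) of wild type with ABA.

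Only P5CS1 of the proline synthesis genes was called in the ABA response. P5CS1 (AT2G39800, chromosome 2, 16598072 to 16603319, minus strand), known as the stress-induced P5CS gene, had 753, 1000 and 843 CPM in hda9-1 with ABA, against 197, 133 and 185 CPM without ABA. In wild type it had 602, 657 and 658 CPM with ABA, against 167, 87.0 and 91.1 CPM without ABA. The groups were far apart in both genotypes, and P5CS1 rose by 2.34 ± 0.24 log2 in hda9-1, 5.05-fold (SE, adjusted p = 1.3e-05 by edgeR), and by 2.47 ± 0.24 in wild type, 5.56-fold (adjusted p = 1.1e-05). Removing length and GC trends gave 2.59 in hda9-1. P5CS2 (AT3G55610, chromosome 3, 20624020 to 20629295, minus strand), known as the housekeeping P5CS gene, had 235, 243 and 201 CPM in hda9-1 with ABA, against 239, 226 and 227 CPM without ABA. Wild-type samples had 211, 216 and 205 CPM with ABA, against 211, 217 and 210 CPM without ABA. Its log2 fold change was -0.03 with a 95% interval of -0.20 to 0.15 in hda9-1 and -0.01 with an interval of -0.19 to 0.16 in wild type. The P5CS2 value in hda9-1 was outside that interval, at 0.18 (adjusted p = 0.059 by edgeR), with length and GC trends removed. It was 0.19 (adjusted p = 0.066) when replicate 2 of hda9-1 with ABA was left out as well. Coding sequences of the P5CS genes were 86.3% identical with a longest identical run of 53 bases, shorter than a read of 75 bases.

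In hda9-1 the proline dehydrogenase genes were called in different directions. ProDH1 (AT3G30775, chromosome 3, 12448636 to 12451556, minus strand), the main gene of proline breakdown, had 94.4, 79.9 and 61.6 CPM in hda9-1 with ABA, against 124, 158 and 107 CPM without ABA. The wild type had 122, 92.8 and 124 CPM with ABA, against 133, 185 and 146 CPM without ABA. ABA samples lay below untreated samples in both genotypes. ProDH1 fell by 0.72 ± 0.19 log2 in hda9-1 (SE, adjusted p = 0.0078 by edgeR). That value was -0.56 (adjusted p = 0.042) with length and GC trends removed, and -0.52 (adjusted p = 0.12), no longer called, when replicate 2 of hda9-1 with ABA was left out as well. The wild-type value of -0.45 ± 0.19 missed the threshold (adjusted p = 0.083) and passed it with DESeq2 (adjusted p = 0.034) and with upper-quartile factors (adjusted p = 0.039). ProDH2 (AT5G38710, chromosome 5, 15501126 to 15504269, plus strand), the second proline dehydrogenase gene, had 7.80, 6.77 and 5.14 CPM in hda9-1 with ABA, against 3.78, 1.77 and 1.97 CPM without ABA. In wild type it had 7.79, 9.09 and 8.79 CPM with ABA, against 4.00, 3.36 and 4.15 CPM without ABA. It rose by 1.39 ± 0.25 log2 in hda9-1 (SE, adjusted p = 3.7e-04 by edgeR) and by 1.16 ± 0.24 in wild type (adjusted p = 0.0018), without overlap between groups.

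Because genes differ in length, their levels were also compared as CPM per kilobase of exon (RPKM), summed within a family. The 4 galactinol synthase genes together held 49.4 ± 6.10 RPKM in hda9-1 with ABA and 8.72 ± 1.04 RPKM in hda9-1 without ABA, and 58.0 ± 6.53 RPKM in wild type with ABA and 10.6 ± 2.84 RPKM in wild type without ABA (SD, n = 3 each). GOLS1 made up 25.7 ± 0.195% of that sum in hda9-1 with ABA, against 79.0 ± 5.63% without ABA, and 31.4 ± 2.88% in wild type with ABA, against 77.5 ± 7.14% without ABA. With ABA the levels of GOLS1, GOLS2 and GOLS4 were of similar size, at 12.7 ± 1.49, 17.3 ± 5.46 and 19.2 ± 2.36 RPKM in hda9-1 and 18.2 ± 2.09, 23.3 ± 3.33 and 16.3 ± 1.95 RPKM in wild type. GOLS4 had 39.3 ± 7.97% of the family in hda9-1 with ABA, above the 28.1 ± 0.396% in wild type with ABA, and the ranges of 33.4 to 48.4% and 27.7 to 28.5% did not overlap. The GOLS4 level itself overlapped between these groups and was not called. The 48.4% was that of replicate 1 of hda9-1, where GOLS2 had 15.9 CPM, against 28.5 and 30.2 CPM in replicates 2 and 3. Those replicates had GOLS4 shares of 33.4 and 36.3%. Without ABA the GOLS4 share was 8.40 to 10.8% in hda9-1 and 4.08 to 6.59% in wild type, again without overlap. The GOLS1 share with ABA was 25.5 to 25.8% in hda9-1 and 28.3 to 34.1% in wild type. Levels of single genes did not overlap between the genotypes at 29.5% of all genes with ABA and 36.5% without. RS5 made up 95.9 ± 1.55% of the RS level in hda9-1 with ABA and 87.3 ± 4.91% without, and 97.6 ± 0.608% in wild type with ABA and 88.1 ± 1.87% without.

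P5CS1 was the larger part of the P5CS level with ABA and the smaller part without. Its share was 78.1 ± 2.66% in hda9-1 with ABA, against 40.8 ± 4.49% without ABA, and 73.9 ± 1.12% in wild type with ABA, against 32.9 ± 8.40% without ABA. ProDH2 had 8.08 ± 0.0954% of the ProDH level in hda9-1 with ABA, against 2.05 ± 0.978% without ABA, and 7.53 ± 1.60% in wild type with ABA, against 2.62 ± 0.645% without ABA, so ProDH1 remained the main transcript. The summed P5CS level over the summed ProDH level was 7.16, 10.6 and 11.5 in hda9-1 with ABA, against 2.58, 1.72 and 2.86 without ABA. In wild type it was 4.64, 6.34 and 4.83 with ABA, against 2.09, 1.24 and 1.54 without ABA. With ABA all 3 hda9-1 samples were above all 3 wild-type samples, and without ABA the genotypes overlapped. Levels of single genes did not overlap between the genotypes with ABA at 29.5% of all genes. No P5CS or ProDH gene was called between the genotypes with ABA, and none was called for a genotype difference in the ABA response. These shares and ratios are descriptions of RNA levels with no test, and they leave out the other genes of each pathway.

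**Figure D3:**
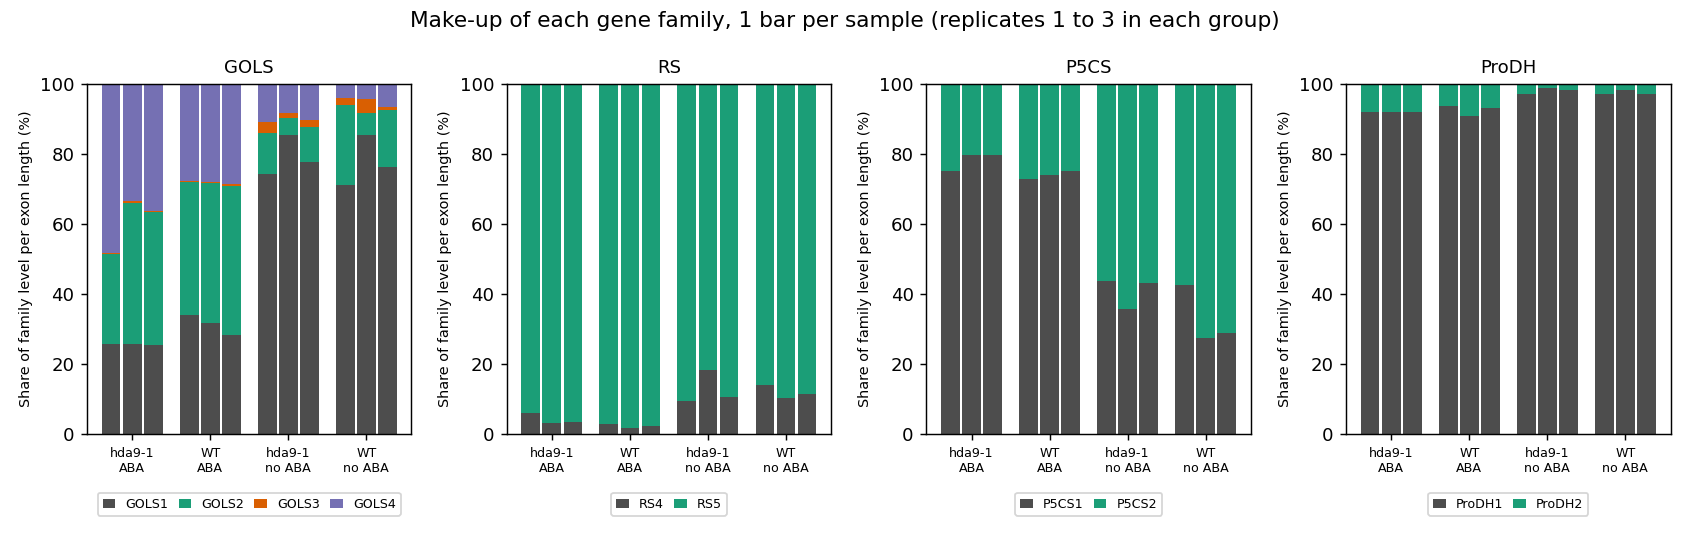
Share of each gene in the summed level per exon length of its family, in percent, with 1 bar per sample in the 4 groups. GOLS1 held 25.5 to 34.1% of the galactinol synthase level in the 6 ABA samples and 71.0 to 85.2% in the 6 untreated samples, and P5CS1 held 72.8 to 79.7% of its family with ABA and 27.3 to 43.6% without.

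With ABA 1 of the 10 members was called, lower in hda9-1, where 12.7% of all genes were called (7.50% higher, 5.21% lower). Without ABA 1 was called higher and 1 lower, where 13.5% were called (6.98% higher, 6.57% lower), so in each case the members' share was near that of all genes. The genotypes did not overlap at 3 members with ABA, where this held for 29.5% of all genes (15.2% higher, 14.3% lower), and at 3 without ABA, where it held for 36.5% (17.0% higher, 19.6% lower). No member passed an adjusted p of 0.01 under either treatment, where 4.14% of all genes did with ABA and 4.71% without. The median log2 fold change of the members was -0.26 with ABA and -0.24 without, beside 0.01 and -0.04 over all genes. GOLS1 was the member called with ABA, at 17.6 ± 2.08 CPM in hda9-1 and 25.3 ± 2.90 CPM in wild type (SD, n = 3 each), a log2 fold change of -0.52 ± 0.14 (SE, adjusted p = 0.023 by edgeR). All 3 mutant samples lay below all 3 wild-type samples. The call was lost without replicate 1 (adjusted p = 0.063) or replicate 2 (adjusted p = 0.097) of wild type with ABA, or replicate 1 of hda9-1 with ABA (adjusted p = 0.091). Without ABA the value was -0.24 ± 0.14 (adjusted p = 0.29) and the groups overlapped.

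RS5 had nearly the same ratio of hda9-1 to wild type with and without ABA. It averaged 52.0 ± 12 CPM in hda9-1 and 72.6 ± 3.06 CPM in wild type with ABA, and 20.3 ± 3.14 CPM in hda9-1 and 28.9 ± 4.57 CPM in wild type without ABA (SD, n = 3 each), and the genotypes did not overlap under either treatment. The log2 fold change was -0.48 ± 0.16 with ABA (SE, adjusted p = 0.058 by edgeR) and -0.51 ± 0.16 without ABA (adjusted p = 0.049), so the 2 values lie on either side of the threshold. With ABA the value passed without replicate 2 of hda9-1 with ABA, the highest mutant sample (-0.70, adjusted p = 0.0024), and it also passed with DESeq2 and limma-voom but not with RLE factors or without the filter. Without ABA the call held without replicate 3 of untreated wild type, replicate 1 of untreated hda9-1, or replicate 2 or 3 of hda9-1 with ABA, and was lost without any other library, with an adjusted p of up to 0.19. It was also lost with limma-voom, with RLE factors and without the filter.

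GOLS4 was higher in hda9-1 without ABA, at 1.18 ± 0.275 CPM against 0.702 ± 0.197 CPM in wild type (SD, n = 3 each), a log2 fold change of 0.75 ± 0.23 (SE, adjusted p = 0.044 by edgeR). This call, on 39 to 70 counts in hda9-1 and 23 to 42 counts in wild type, was lost without replicate 1 or 2 of untreated wild type, replicate 1 or 3 of untreated hda9-1, or replicate 1 or 3 of wild type with ABA, with an adjusted p of up to 0.17. It was also lost with limma-voom (adjusted p = 0.28), upper-quartile factors, library size alone, replicate number as a block, or only the compared groups fitted. With ABA the value was 0.23 ± 0.16 (adjusted p = 0.37). P5CS1 had a log2 fold change of 0.44 ± 0.23 with ABA (adjusted p = 0.23), where the genotypes did not overlap, and 0.58 ± 0.23 without ABA (adjusted p = 0.12), and neither passed. Without replicate 1 of untreated wild type, whose 167 CPM was the highest of its group, the untreated difference was 0.95 (adjusted p = 0.0043). ProDH1 had a log2 fold change of -0.52 ± 0.19 with ABA (adjusted p = 0.084) and -0.25 ± 0.18 without ABA (adjusted p = 0.41), and ProDH2 had -0.38 ± 0.24 (adjusted p = 0.31) and -0.61 ± 0.25 (adjusted p = 0.12). Without replicate 1 of untreated hda9-1 the untreated ProDH2 difference was -1.03 (adjusted p = 0.0086). Without replicate 2 of hda9-1 with ABA, the log2 fold changes with ABA were -0.55 for GOLS1 (adjusted p = 0.020), 0.31 for GOLS4 (adjusted p = 0.21), 0.30 for P5CS1 (adjusted p = 0.47), -0.55 for ProDH1 (adjusted p = 0.13) and -0.43 for ProDH2 (adjusted p = 0.29). GOLS2, GOLS3, RS4 and P5CS2 were called under neither treatment, and the 95% interval for P5CS2 was -0.07 to 0.28 with ABA and -0.06 to 0.29 without ABA.

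**Figure D4:**
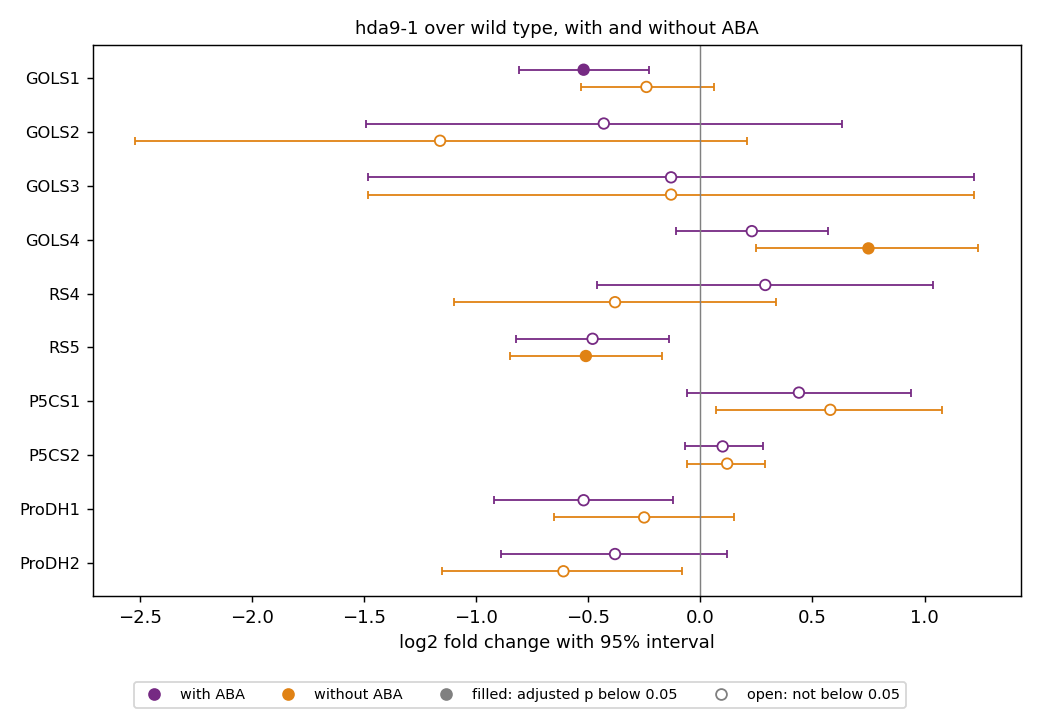
Log2 fold change of hda9-1 over wild type for each gene, with ABA above without ABA, with 95% intervals. Filled points have an adjusted p below 0.05, which holds for GOLS1 with ABA and for GOLS4 and RS5 without ABA.

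The genotype difference averaged over both treatments was tested after the separate values had been seen, and is a test chosen with them in view. It called 6 of the 10 members, where it called 25.7% of all genes (13.2% higher, 12.6% lower). GOLS4 (0.49 ± 0.14 log2, SE, adjusted p = 0.019 by edgeR) and P5CS1 (0.51 ± 0.16, adjusted p = 0.040) were higher in hda9-1. RS5 (-0.50 ± 0.11, adjusted p = 0.0056), GOLS1 (-0.38 ± 0.10, adjusted p = 0.011), ProDH2 (-0.50 ± 0.17, adjusted p = 0.045) and ProDH1 (-0.39 ± 0.13, adjusted p = 0.047) were lower. RS5 and GOLS1 were called whichever of the 12 libraries was left out, with an adjusted p of at most 0.017 and 0.034. GOLS4 was lost without replicate 2 of untreated wild type or replicate 1 of untreated hda9-1 (adjusted p of up to 0.067). P5CS1 was called in only 3 of the 12 such fits, without replicate 1 of untreated wild type, replicate 2 of untreated hda9-1 or replicate 1 of hda9-1 with ABA, and its adjusted p was otherwise at most 0.093. ProDH1 was called in 4, the same 3 and without replicate 2 of wild type with ABA (otherwise at most 0.10), and ProDH2 in 2, without replicate 1 of untreated hda9-1 or of hda9-1 with ABA (otherwise at most 0.11). Other settings also ended calls: GOLS4 with limma-voom (adjusted p = 0.13), P5CS1 with upper-quartile factors, with library size alone and without the filter (up to 0.076), and ProDH1 without the filter and with length and GC trends removed (up to 0.061).

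Whether the response to ABA differed between the genotypes was tested as an interaction, hda9-1 minus wild type. None of the 10 members was called by edgeR and none had an unadjusted p below 0.05, and none was called by DESeq2 or limma-voom. Over all genes edgeR called 0% (0 genes, with 2467 at an unadjusted p below 0.05), limma-voom called 0 and DESeq2 129. The difference was 0.03 log2 for RS5 (95% interval -0.45 to 0.51), -0.14 for P5CS1 (-0.85 to 0.57), -0.28 for GOLS1 (-0.70 to 0.13) and -0.52 for GOLS4 (-1.12 to 0.08). The widest intervals were those of GOLS3 (-1.85 to 1.86) and GOLS2 (-1.0 to 2.46). A p above the threshold does not show that the genotypes respond alike, and the intervals give the differences that remain possible.

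Other genes of the raffinose pathway responded to ABA in both directions. Of 20 further genes listed, 18 were in the table and 16 were tested. In hda9-1 6 rose and 5 fell (median 0.22 log2), where 23.3% of all genes were called higher and 18.6% lower. In wild type 5 rose and 3 fell (median 0.10 log2), where 17.0% of all genes were called higher and 14.0% lower. The myo-inositol-phosphate synthase gene MIPS2 (AT2G22240), of the pathway that supplies inositol for galactinol, rose by 1.53 ± 0.21 log2 in hda9-1 (SE, adjusted p = 5.5e-05 by edgeR) and by 1.70 ± 0.21 in wild type (adjusted p = 2.7e-05). Its relative MIPS3 (AT5G10170) fell by 0.55 ± 0.15 (adjusted p = 0.0080) and 0.52 ± 0.15 (adjusted p = 0.012). MIPS1 (AT4G39800) fell by 0.62 ± 0.21 in hda9-1 (adjusted p = 0.033), where samples with and without ABA overlapped. It was not called in wild type (-0.26 ± 0.21, adjusted p = 0.39). Of the UDP-glucose 4-epimerase genes, whose products make UDP-galactose, UGE2 (AT4G23920) rose by 0.84 ± 0.11 in hda9-1 and 1.07 ± 0.11 in wild type, and UGE3 (AT1G63180) fell by 1.35 ± 0.16 and 0.94 ± 0.16. UGE1 (AT1G12780) was far more abundant, at 282 ± 21.8 CPM in untreated wild type, where UGE2 had 9.92 ± 0.987 CPM (SD, n = 3). It fell by 0.42 ± 0.11 in hda9-1 (adjusted p = 0.0071) and was not called in wild type (-0.13 ± 0.11, adjusted p = 0.44). UGE4 (AT1G64440) was called in neither genotype.

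Genes of the alkaline alpha-galactosidase family, whose studied members split galactose from raffinose, were also among those that changed. SIP2 (AT3G57520) averaged 543 ± 85.7 CPM in hda9-1 with ABA and 191 ± 24.3 CPM without ABA, and 678 ± 103 CPM in wild type with ABA and 180 ± 11.1 CPM without ABA (SD, n = 3 each). SIP1 (AT1G55740, not to be confused with RS5, which the annotation also lists as SIP1) rose by 1.56 ± 0.12 log2 in hda9-1 and 1.82 ± 0.12 in wild type. DIN10 (AT5G20250), known as a dark-inducible gene, fell to 823 ± 221 CPM in hda9-1 with ABA, against 1920 ± 146 CPM without ABA, and to 1110 ± 288 CPM in wild type with ABA, against 1900 ± 144 CPM without ABA. The alpha-galactosidase gene AGAL3 (AT3G56310) rose by 1.05 ± 0.08 in hda9-1 and 0.80 ± 0.08 in wild type. Between the genotypes 2 of the 16 were higher and 2 lower in hda9-1 with ABA, and 1 was lower without ABA, where 12.7% and 13.5% of all genes were called. MIPS3 was lower in hda9-1 than in wild type with ABA (-0.81 ± 0.15, adjusted p = 0.0039 by edgeR) and without ABA (-0.78 ± 0.15, adjusted p = 0.0034). MIPS1 was lower with ABA (-0.72 ± 0.21, adjusted p = 0.045) and not called without ABA. AGAL1 (AT5G08380; 0.38 ± 0.10, adjusted p = 0.019) and AGAL3 (0.28 ± 0.08, adjusted p = 0.040) were higher with ABA.

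**Figure D5:**
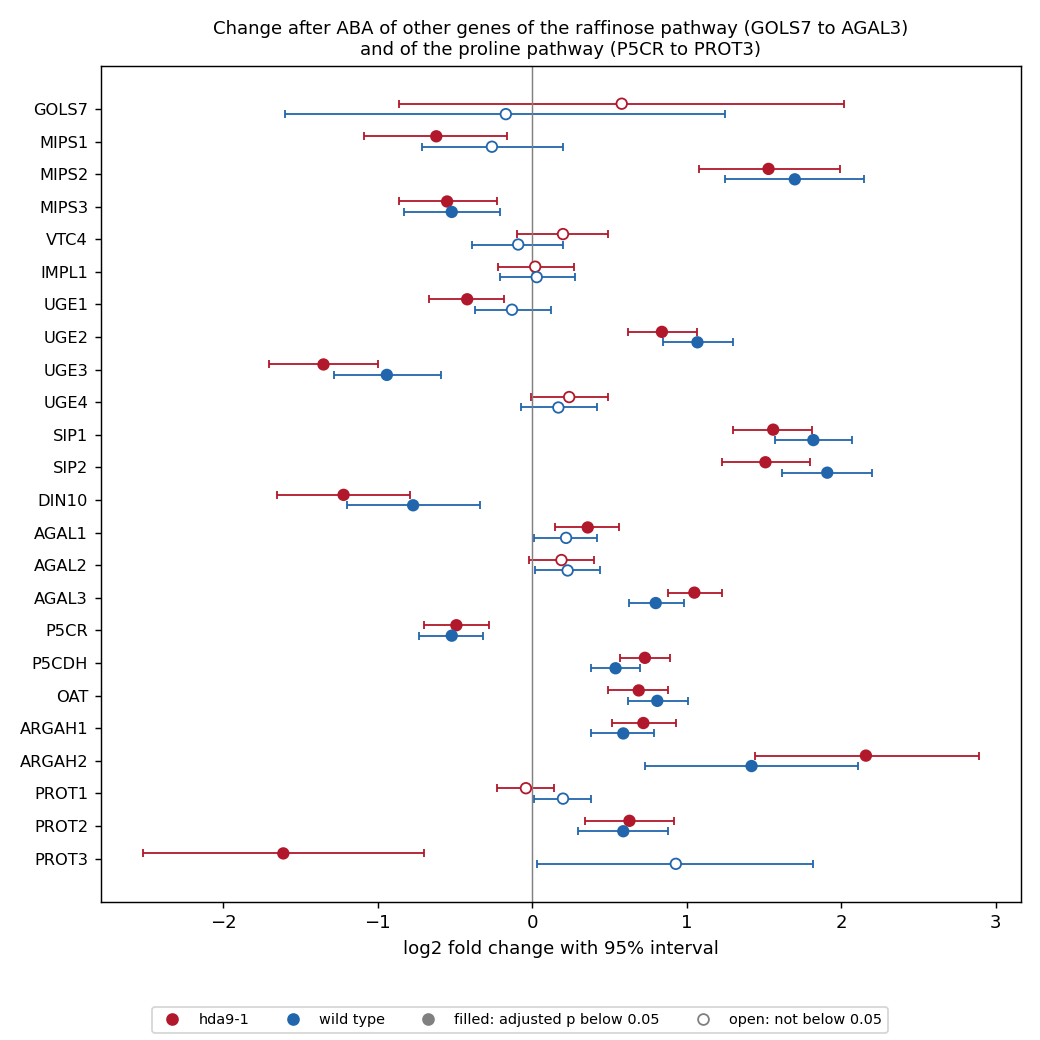
Log2 fold change with ABA over without ABA for the tested further genes of the raffinose pathway, in the upper rows to AGAL3, and of the proline pathway, from P5CR down, with hda9-1 above wild type and 95% intervals. MIPS2, UGE2, SIP1, SIP2 and AGAL3 lie on the positive side in both genotypes, and PROT3 lies on different sides, at -1.61 in hda9-1 and 0.93 in wild type.

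Of 13 further genes of the proline pathway, 8 were in the table and tested. The other 5, which are bZIP factors of the ProDH1 promoter, were not analysed here. In hda9-1 5 rose and 2 fell (median 0.66 log2), where 41.9% of all genes were called, and in wild type 5 rose and 1 fell (median 0.59 log2), where 30.9% were called. P5CR (AT5G14800), the gene of the reductase that completes proline synthesis, fell by 0.49 ± 0.10 log2 in hda9-1 (SE, adjusted p = 9.1e-04 by edgeR) and by 0.52 ± 0.10 in wild type (adjusted p = 6.7e-04), opposite to P5CS1. P5CDH (AT5G62530), whose product acts after proline dehydrogenase, rose by 0.73 ± 0.07 and 0.54 ± 0.07. ProDH2 also rose in both genotypes, while ProDH1 was called lower in hda9-1 and not called in wild type. OAT (AT5G46180), the ornithine aminotransferase gene, rose by 0.69 ± 0.09 and 0.81 ± 0.09. The arginase gene ARGAH2 (AT4G08870) rose by 2.16 ± 0.33 in hda9-1 and 1.42 ± 0.31 in wild type, and without ABA it was lower in hda9-1 (3.94 ± 0.554 CPM) than in wild type (9.55 ± 3.81 CPM; -1.28 ± 0.33, adjusted p = 0.027). The proline transporter gene PROT3 (AT2G36590), with 11 to 72 counts per sample, fell by 1.61 ± 0.43 in hda9-1 (adjusted p = 0.0067) and was at 0.93 ± 0.42 in wild type (adjusted p = 0.11). The difference of its responses was -2.53 ± 0.60, with an unadjusted p of 6.6e-04 and an adjusted p of 0.21.

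Genes with the most similar pattern to 3 members were ranked by the root mean square distance between log2 CPM profiles over the 12 samples, each centred on its own mean. Closest to P5CS1 were FBH3 (AT1G51140), a bHLH factor gene, at 0.199, AT3G56080 at 0.252 and the inositol transporter gene INT2 (AT1G30220) at 0.263, where the median over all genes was 1.31. Closest to GOLS2 were the small heat shock protein gene ATHSP22.0 (AT4G10250) at 0.427, MYB79 (AT4G13480) at 0.489 and AT5G40800 at 0.520 (median 2.27). Closest to ProDH1 were the 14-3-3 protein gene GRF11 (AT1G34760) at 0.154, AT4G30170 at 0.158 and the B-box gene BBX17 (AT1G49130) at 0.170 (median 0.518). Among the members, RS5 was nearest to ProDH2 (0.298) and to GOLS1 (0.301), and GOLS2 and GOLS4 were 0.838 apart.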

How the data were processed

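The deposited table holds whole-number counts per gene for 12 samples, with no further normalization seen in the values. Per the submitters' processing notes the authors used Bowtie2, Salmon, limma 3.56 and the TAIR10 build. Which tool made the counts is not given in the sources used here, so the deposited counts may be alignments or rounded estimates. Per the labels, libraries came from a strand-marking kit with 1 µg of RNA, 7 PCR cycles and reads of 75 bases, and whether strand was used in counting is not given, so antisense transcripts may add to a gene's count.

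Counts were tested in R 4.3.3 with edgeR 4.0.16 (filterByExpr, minimum count 10 and total 15, TMM, robust quasi-likelihood fit, 4 group means over all 12 samples, two-sided tests, Benjamini-Hochberg adjustment over 20924 genes). The tested genes held 99.99% of counts. Alternatives used limma 3.58.1 and DESeq2 1.42.0. The test scripts were checked on simulated data. Exon lengths, positions and the upstream windows of 300 bases came from RefSeq's TAIR10.1, which had a record for 23655 of 23911 genes. Coding sequences were aligned with Biopython 1.88. Profiles used log2 CPM with a prior count of 2.

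The members, gene lists, named genes and tests were chosen with earlier results of these data known. Further genes could be named if called in an ABA response or a genotype contrast, and not all of these are named, and nearest profiles were the 3 closest to GOLS2, P5CS1 and ProDH1. Protein sequences were not used here; coding identity replaced the planned protein identity.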

Additional observations from a re-analysis of the deposited data

How the results depend on the processing

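For the ABA response in hda9-1 the number of members called was 7 in all alternatives but 1, 6 with length and GC trends removed without replicate 2 of hda9-1 with ABA, where ProDH1 was lost. In wild type, at 7, it was 8 with upper-quartile factors, library size alone, DESeq2 or only the compared groups, 6 at an adjusted p of 0.01, and 6 to 7 with 1 library left out. With ABA, where 1 member was called, the count was 2 with limma-voom, upper-quartile factors, a floor of 1 CPM in at least 3 samples, the replicate block, length and GC trends removed (also without replicate 2 of hda9-1 with ABA, an alternative added after the data were seen) or only the compared groups fitted. It was 3 with library size alone or DESeq2, 0 at an adjusted p of 0.01, and 0 to 2 with 1 library left out. Without ABA, where 2 were called, it was 1 unfiltered, with library size alone, with RLE or upper-quartile factors, with the replicate block or with only the compared groups, 0 with limma-voom or at 0.01, and 0 to 2 with 1 library left out. Averaged over both treatments it was 6, again added later. The cause was not tested. Whether samples with equal replicate numbers were grown or handled together is not given, and correlations cannot settle it. Deviations from the group means correlated above 0.1 in 1 of 18 same-numbered pairs (range -0.15 to 0.12), and 1 of 12 samples correlated best with its own number.

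Values that changed sign were all uncalled. The ABA response of GOLS3 in hda9-1 was -0.04 with upper-quartile factors, -0.01 with library size alone, -0.34 with trends removed without that replicate and -0.42 to 0.50 with 1 library left out. In wild type it was -0.04 with either of those scalings and -0.37 to 0.40. For P5CS2 it was 0.18 with trends removed, 0.19 also without the replicate and -0.09 to 0.04 in hda9-1, and 0.03, 0.05, 0.00 with only the compared groups and -0.03 to 0.01 in wild type. RS4 spanned -0.75 to 0.01 in hda9-1. Between genotypes GOLS3 spanned -0.59 to 0.27 with ABA and -0.62 to 0.24 without, and RS4 spanned 0.00 to 0.52 with ABA and was -0.04 averaged. The GOLS3 interaction was -0.03 with RLE factors and DESeq2, -0.02 unfiltered, -0.08 with limma-voom, -0.11 with the replicate block, -0.39 with trends removed without the replicate and -0.47 to 0.45. The interaction was 0.00 with RLE factors and DESeq2 and -0.20 to 0.15 for RS5, 0.03 with trends removed and -0.52 to 0.03 for P5CS1, 0.15 and 0.14 with trends removed and -0.10 to 0.05 for P5CS2, and -0.04 to 1.15 for GOLS2. Low counts limit GOLS3, at 6 to 25 per sample.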
